A study of Mus musculus with 28 samples.

Results

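MHC class II genes and the invariant chain were followed in the blood of mice given graded doses of total body irradiation. The genes were chosen by name: array probes were taken whose single annotated symbol was Cd74, Ciita, H2-Aa, H2-Ab1, H2-Ea, H2-Eb1, H2-DMa, H2-DMb1, H2-DMb2 or H2-Oa. Of these 10 symbols, 6 had such a probe, and the 6 genes were read by 7 of the 16722 probes: H2-Aa, H2-Ab1, H2-Eb1, H2-DMa and Ciita by 1 probe each, and Cd74 by the probes M300004233 and M300004234. H2-Ea, H2-DMb1, H2-DMb2 and H2-Oa had no probe of their own, and 1 probe that lists 2 of these symbols together was left out by the rule. All 7 probes had a value on all 28 arrays, so none was lost to a filter.

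Peripheral blood mononuclear cells (PB MNCs) came from 10-week-old female C57Bl6 mice, an inbred strain, 6 h after 50, 200 or 1000 cGy from a cesium source or from nonirradiated controls (0 cGy). Each dose was given to 7 mice, and amplified RNA of each mouse, in Cy5, was hybridized to an array of its own beside a universal mouse reference RNA in Cy3. The dye labels of 6 of the 7 arrays at 1000 cGy name no real dye, so that their direction rests on the study's methods. Over all probes these 6 arrays correlated with the remaining 1000 cGy array at r of 0.93 to 0.98 and with those of the other doses at 0.76 to 0.97. A value is a log2 ratio of sample to reference after each array was centred on its median. Arrays stand for separate mice, and the 3 doses share the same 7 controls. The samples mix cell types, and fewer cells of a type and less RNA per cell cannot be told apart in them.

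MHC class II molecules present peptides from engulfed material to CD4+ T cells. Each is a pair of an alpha and a beta chain, here H2-Aa with H2-Ab1, and H2-Ea with H2-Eb1. RefSeq lists H2-Ea of C57BL/6J as a transcribed pseudogene, so that H2-Eb1 lacks its partner chain in this strain. The invariant chain, Cd74, fills the groove of newly made molecules and guides them to endosomes. There it is cut down by proteases, and H2-DM, whose alpha chain is H2-DMa, exchanges its last fragment for other peptides. Ciita is the coactivator that switches on all of these genes. In blood the molecules are carried mainly by B cells, and by monocytes and dendritic cells.

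Ciita does not bind DNA itself and acts through factors on a shared promoter module, in which the RFX complex binds the X box and NF-Y binds the Y box. The upstream sequences of H2-Aa and H2-Eb1 are shown because both genes carry this module, while their log2 differences from control at 1000 cGy were -2.07 and -1.03. Promoter windows (RefSeq, GRCm38.p6, from 250 bases before to 50 after a start) were read for 3 of the 6 genes, H2-Aa, H2-Eb1 and H2-DMa. Promoters of Cd74, H2-Ab1 and Ciita were not read, that of Cd74 because its chromosome was skipped. Capitals mark GCAAC, a core of the X box, and CTGATTGG, the Y box letters with the inverted CCAAT, with 20 bases on each side.
H2-Aa, chr17:34287847-34287924, minus strand: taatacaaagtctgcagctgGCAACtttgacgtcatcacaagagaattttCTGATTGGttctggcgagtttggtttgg
H2-Eb1, chr17:34305756-34305832, plus strand: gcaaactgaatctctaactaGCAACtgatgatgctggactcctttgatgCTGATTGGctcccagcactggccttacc
The letters lie 81 and 51 bases before the start in H2-Aa, with 25 bases between them, and 91 and 62 bases before it in H2-Eb1, with 24 bases between them. Of all 32851 mouse windows searched on both strands, 35.2% hold GCAAC, 4.1% hold CTGATTGG, and 0.0913% hold GCAAC followed by CTGATTGG on the same strand at a distance of 15 to 35 bases. Neither of the 2 windows of H2-DMa holds CTGATTGG, and 1 holds GCAAC.

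Cd74, H2-Aa, H2-Ab1 and H2-DMa were lower than control after 200 and 1000 cGy and H2-Eb1 after 1000 cGy only, while Ciita was not called at any dose and no gene was called after 50 cGy. A call was a Benjamini-Hochberg adjusted p under 0.05 over the 16600 probes tested by limma, two-sided. At 50 cGy 0 of 7 probes were called, and 0 of 7 had an unadjusted p under 0.05, where 5.13% of all probes were called lower and 8.23% higher. At 200 cGy 5 of 7 were called lower, against 20.9% of all probes, and none was called higher, against 22.2%. At 1000 cGy 6 of 7 were called lower, against 28.9% of all probes, and none higher, against 38.3%. The median log2 difference from control of the 7 probes was -0.06, -0.62 and -1.84 at the 3 doses, and that of all tested probes was -0.02, 0.03 and 0.13. All 7 exposed mice lay below all 7 controls on 2 of 7 probes at 200 cGy, against 9.6% of all probes, and on 4 of 7 at 1000 cGy, against 14.9%.

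**Figure D1:**
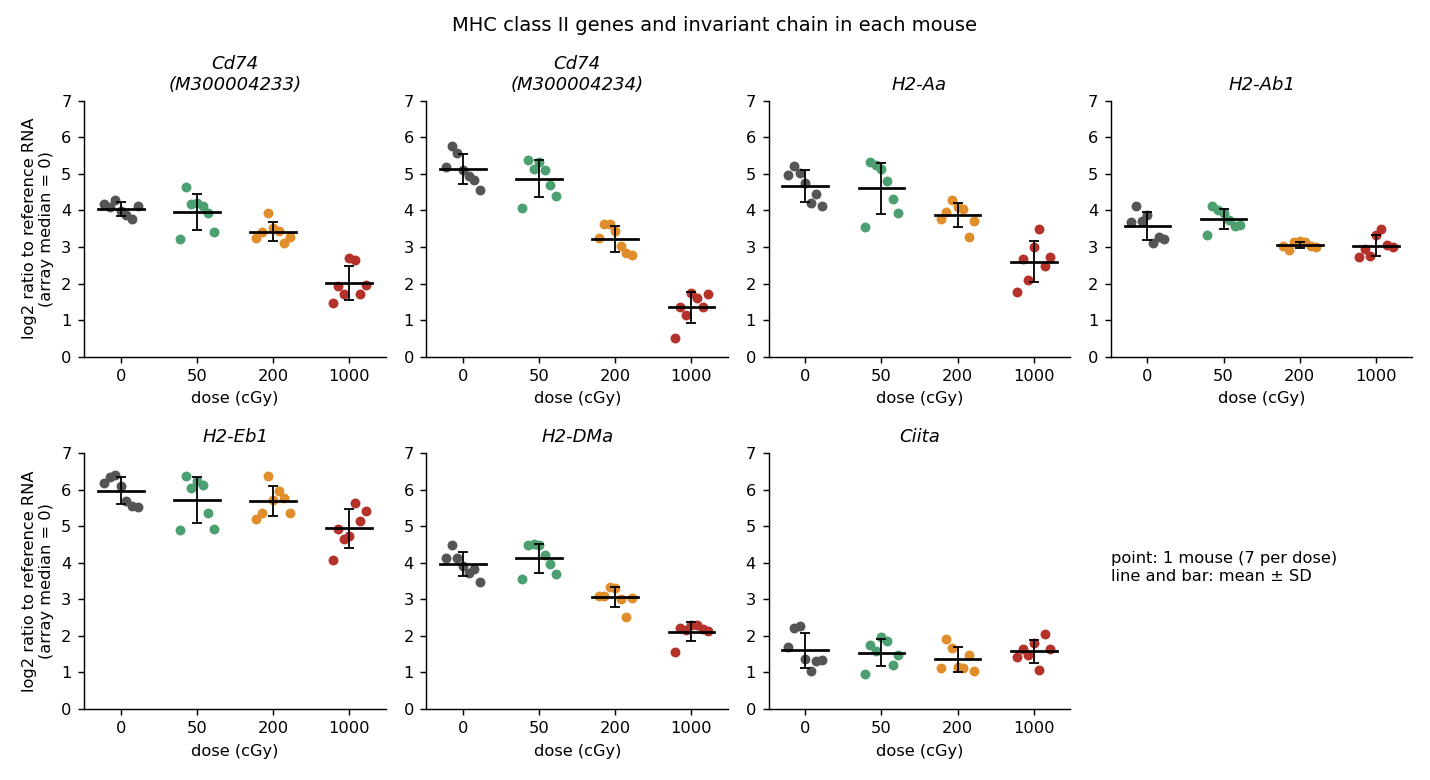
Log2 ratio to the reference RNA (vertical axis, array median at 0) by dose in cGy (horizontal axis) for each of the 7 probes. Points are mice, 7 per dose, and lines with bars are mean ± SD. Both Cd74 probes, H2-Aa and H2-DMa separate 1000 cGy from control, while Ciita lies between 0.95 and 2.27 at all doses.

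The invariant chain fell at both higher doses, and its probes differed in how far. The log2 difference of the mean of its probes at 1000 cGy, -2.91, was the largest in size of the 6 genes, although Cd74 (M300004233) alone (-2.03) was close to H2-Aa (-2.07). On probe M300004234, the nonirradiated mice had log2 ratios from 4.57 to 5.76, with a median of 5.11. After 50 cGy the same probe ranged from 4.06 to 5.39 (median 5.12), after 200 cGy from 2.79 to 3.64 (median 3.23), and after 1000 cGy from 0.51 to 1.75 (median 1.36). Every mouse at 200 cGy was below every control and every mouse at 50 cGy, and every mouse at 1000 cGy was below every mouse at 200 cGy. The log2 difference from control was -1.91 at 200 cGy (SE 0.217, limma adjusted p = 4.39e-08) and -3.79 at 1000 cGy (SE 0.217, limma adjusted p = 2.75e-14), or 3.76-fold and 13.8-fold lower, with -4.37 at 1000 cGy after quantile normalization. Only 8 of the 16600 probes had a larger fall at 1000 cGy.

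Probe M300004233 of the same gene moved in the same direction by less. Its controls ranged from 3.75 to 4.29 (median 4.09), and mice at 50 cGy from 3.22 to 4.64 (median 4.11). At 200 cGy the values were 3.11 to 3.94 (median 3.41), and at 1000 cGy 1.46 to 2.69 (median 1.93). At 200 cGy 6 of 7 mice were below all controls, and at 1000 cGy all 7 were. This probe fell by 0.62 on the log2 scale at 200 cGy (SE 0.193, limma adjusted p = 0.00972) and by 2.03 at 1000 cGy (SE 0.193, limma adjusted p = 5.45e-10), the latter 4.08-fold lower. After quantile normalization between arrays its differences were -1.004 at 200 cGy and -2.72 at 1000 cGy. Taken within each array, the difference of M300004234 from M300004233 shifted from control by -1.29 at 200 cGy and by -1.76 at 1000 cGy, with all 7 mice below all controls at each dose (exact two-sided permutation test, p = 0.000583, the smallest that 7 against 7 mice can give, adjusted p = 0.00105 over 18 tests). The shift was -0.18 at 50 cGy (exact permutation test, adjusted p = 0.301). Which parts of the Cd74 transcripts the probes read was not looked up, since no probe sequence was used here.

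Of the chains of the H2-A molecule, the alpha chain gene H2-Aa had the larger difference at 1000 cGy, with a 95% interval of -2.61 to -1.53 against -0.84 to -0.24 for the beta chain gene H2-Ab1; the difference between these genes was not tested directly. H2-Aa ranged in controls from 4.11 to 5.22, with a median of 4.76, and after 50 cGy from 3.54 to 5.31, with a median of 4.80. After 200 cGy it was between 3.26 and 4.28 (median 3.95), and after 1000 cGy between 1.76 and 3.49 (median 2.68). At 200 cGy 6 of 7 mice were below all controls, and at 1000 cGy no mouse overlapped with them. The log2 difference from control was -0.80 at 200 cGy (SE 0.265, limma adjusted p = 0.0156) and -2.07 at 1000 cGy (SE 0.265, limma adjusted p = 1.28e-07), or 4.20-fold lower at the higher dose, where quantile normalization gave -2.81.

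H2-Ab1 was lower than control by like amounts at 200 and 1000 cGy. Controls ranged from 3.10 to 4.12 (median 3.69) and mice at 50 cGy from 3.34 to 4.12 (median 3.74). The 200 cGy mice lay close together between 2.91 and 3.16 (median 3.02), with an SD of 0.09 against 0.38 in controls and 0.28 at 50 cGy, and the 1000 cGy mice between 2.73 and 3.49 (median 3.00). Below all controls were 4 of 7 mice at 200 cGy and 5 of 7 at 1000 cGy, so that the groups overlapped at each dose. H2-Ab1 fell by 0.52 on the log2 scale at 200 cGy (SE 0.145, limma adjusted p = 0.00443) and by 0.54 at 1000 cGy (SE 0.145, limma adjusted p = 0.00209). The difference of 1000 from 200 cGy was -0.02 with a 95% interval of -0.31 to 0.28. After quantile normalization the difference of 1000 from 200 cGy was -0.48 (limma adjusted p = 0.0224), and those from control were -0.87 at 200 cGy and -1.35 at 1000 cGy, so the like size at these doses depends on the scaling of the arrays.

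H2-Eb1, the beta chain without a partner in this strain, was called lower at 1000 cGy and not at 200 cGy. Its control values lay between 5.52 and 6.39 around a median of 6.10, and those after 50 cGy between 4.89 and 6.38 around 6.05. The 200 cGy mice reached from 5.19 to 6.37 (median 5.71), and the 1000 cGy mice from 4.07 to 5.64 (median 4.92). At 1000 cGy 6 of 7 mice were below all controls. The log2 difference from control was -0.29 at 200 cGy, with a 95% interval of -0.80 to 0.22 (limma adjusted p = 0.375), and -1.03 at 1000 cGy (SE 0.250, limma adjusted p = 0.000763), or 2.04-fold lower. Quantile normalization gave -0.67 at 200 cGy (limma adjusted p = 0.0027) and -2.06 at 1000 cGy.

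H2-DMa, the alpha chain of the peptide exchange factor, fell at both higher doses. Controls had a median of 3.91 (lowest 3.47, highest 4.48) and the 50 cGy mice a median of 4.21 (lowest 3.55, highest 4.50). The median was 3.08 after 200 cGy (lowest 2.51, highest 3.32) and 2.18 after 1000 cGy (lowest 1.56, highest 2.29). The ranges of control, 200 cGy and 1000 cGy did not overlap. The log2 difference from control was -0.90 at 200 cGy (SE 0.165, limma adjusted p = 5.46e-05) and -1.84 at 1000 cGy (SE 0.165, limma adjusted p = 1.72e-10), or 1.87-fold and 3.58-fold lower. Quantile normalization gave -2.54 at 1000 cGy.

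Ciita, the coactivator of the other genes, was not called at any dose. Control mice lay between 1.03 and 2.27, with a median of 1.36, and 50 cGy mice between 0.95 and 1.97, with a median of 1.58. The 200 cGy mice had a median of 1.15 (1.03 to 1.91), and the 1000 cGy mice one of 1.62 (1.05 to 2.05). The 4 ranges overlapped almost completely. At 1000 cGy its log2 difference from control was -0.02 with a 95% interval of -0.42 to 0.38 (limma adjusted p = 0.935), and at 200 cGy it was -0.25 with an interval of -0.64 to 0.15 (limma adjusted p = 0.325). With quantile normalization Ciita was called lower at both doses, with log2 differences of -0.49 (limma adjusted p = 0.0108) and -0.54 (limma adjusted p = 0.00387). Ciita is transcribed from several promoters used by different cell types, and which of these transcripts the probe reads was not looked up.

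**Figure D2:**
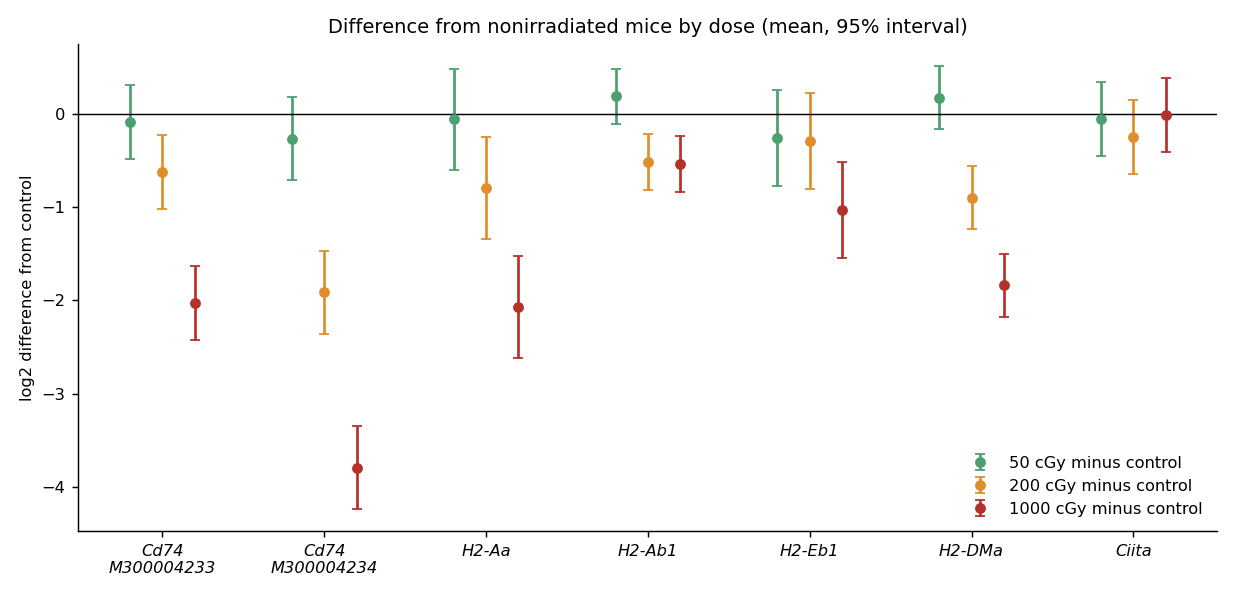
Log2 difference from the nonirradiated mice (vertical axis) for the 7 probes (horizontal axis) at 50, 200 and 1000 cGy; points are limma estimates and bars 95% intervals. All intervals at 50 cGy include 0. At 1000 cGy the estimates run from -0.02 for Ciita to -3.79 for Cd74 (M300004234).

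At 50 cGy the log2 differences ran from -0.27 for Cd74 (M300004234) to 0.18 for H2-Ab1, with limma adjusted p values from 0.423 to 0.904. The widest interval was that of H2-Aa, -0.61 to 0.48, so a change of this gene within these bounds was not excluded. Between 50 and 200 cGy 5 of 7 probes were called lower, against 20.2% of all probes, and the exceptions were H2-Eb1 and Ciita. Of these calls, the log2 difference was -1.64 for Cd74 (M300004234), -1.07 for H2-DMa and -0.70 for H2-Ab1. The other 2 calls, Cd74 (M300004233, -0.54, limma adjusted p = 0.0288) and H2-Aa (-0.74, limma adjusted p = 0.0291), were lost when any 1 of 4 mice was left out, replicates 2, 3 and 4 of 50 cGy and replicate 6 of 200 cGy, with adjusted p from 0.0558 to 0.0796 for Cd74 and from 0.0664 to 0.0727 for H2-Aa. Between 200 and 1000 cGy 5 of 7 probes were called lower, against 14.9% of all probes, the exceptions being H2-Ab1 and Ciita. The step was -1.88 and -1.40 for the Cd74 probes M300004234 and M300004233, -1.27 for H2-Aa, -0.94 for H2-DMa and -0.74 for H2-Eb1. The call for H2-Eb1 was lost without replicate 3 of 200 cGy (-0.62, limma adjusted p = 0.0580) or replicate 1 of 1000 cGy (-0.60, limma adjusted p = 0.0587).

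That the genes moved by unequal amounts was tested within each array, where a scaling factor common to all probes of the array cancels. Quantile normalization changes probes of an array by unequal amounts, which does not cancel. The tests within arrays, here and against B cell genes below, were not repeated under it. Since the Cd74 probes moved by unequal amounts, the answer depended on which of them stood for Cd74, and each was also taken alone, an alternative added after the data were seen. At 1000 cGy Ciita, H2-Ab1 and H2-Eb1 were shifted upward relative to Cd74 by either probe. With M300004233 these shifts were 2.01 and 1.49, with all 7 mice above all controls (exact permutation test, adjusted p = 0.00134 over 30 tests), and 1.00 with 6 of 7 mice above (exact permutation test, adjusted p = 0.0050), and with M300004234 they were 3.77, 3.25 and 2.76. The shifts of H2-Aa and H2-DMa at this dose were -0.041 and 0.19 relative to M300004233 (exact permutation test, adjusted p = 0.909 and 0.367) and 1.72 and 1.95 relative to M300004234 (exact permutation test, adjusted p = 0.00134). H2-Aa and H2-DMa thus differed from Cd74 by its second probe alone.

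At 200 cGy no gene was shifted beyond the spread relative to M300004233, with values from -0.28 for H2-DMa to 0.38 for Ciita (exact permutation test, adjusted p from 0.094 to 0.592). All 5 were shifted upward relative to M300004234, by 1.01 for H2-DMa to 1.67 for Ciita, with all 7 mice above all controls (exact permutation test, adjusted p = 0.00134). Relative to the mean of the Cd74 probes the shifts lay between 0.37 and 1.02 at 200 cGy and between 0.84 and 2.89 at 1000 cGy. At 50 cGy H2-DMa and H2-Ab1 were shifted relative to this mean, by 0.35 (exact permutation test, adjusted p = 0.00403) and 0.36 (exact permutation test, adjusted p = 0.0217). The calls were lost relative to M300004233 (0.26 and 0.27, exact permutation test, adjusted p = 0.122 and 0.167). They were kept relative to M300004234, by 0.44 with all 7 mice above all controls and 0.45 with 4 of 7 above (exact permutation test, adjusted p = 0.00134 and 0.0117).

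Mouse by mouse, the 6 probes other than Ciita varied together within doses. After the mean of each dose was taken out, Pearson's r over the 28 arrays was 0.70 to 0.91 for pairs among these 6 probes, the highest being H2-Aa with H2-DMa (0.906), and 0.33 to 0.66 for pairs with Ciita. The arrays share scaling and cell makeup, so these values are descriptions. Replicate 1 of 50 cGy was the lowest of its group on all 7 probes, for example 3.54 for H2-Aa against a group median of 4.80. Replicate 1 of 1000 cGy was the lowest of its group on 6 of 7 probes. The mean of 11 B cell markers, relative to control, was also the lowest of its group in the former mouse, -0.69 in a range of -0.69 to 0.08, and in the latter it was -3.32 in a range of -3.42 to -3.00.

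Markers of the cell types that carry class II moved in opposite directions with dose. All 11 measured B cell markers of 20 listed were called lower at 200 and at 1000 cGy, where 20.3% and 25.9% of 9076 genes were, with median log2 differences of -1.71 and -3.22. Their mean level relative to control was -0.37 to 0.34 in controls, -2.05 to -1.40 at 200 cGy and -3.42 to -3.00 at 1000 cGy. Cd79b, which signals for the B cell receptor, fell by 5.30 on the log2 scale at 1000 cGy (limma adjusted p = 3.44e-24), its partner Cd79a fell by 3.20 (limma adjusted p = 7.3e-14), and Ms4a1, which encodes CD20, fell by 2.02 (limma adjusted p = 1.8e-10). Of 10 measured monocyte markers of 16 listed, 9 were called higher at both of these doses, against 23.2% and 40.8% of all genes, with medians of 0.87 and 1.25, among them Cd14, the lipopolysaccharide coreceptor (3.90 at 1000 cGy, limma adjusted p = 1.21e-10) and Cd68, a lysosomal protein of phagocytes (1.92, limma adjusted p = 1.94e-13). Their mean level was -0.22 to 0.47 in controls, 0.95 to 1.41 at 200 cGy and 0.92 to 1.81 at 1000 cGy. Of other cells, all 5 measured platelet markers of 8 listed were called higher at 1000 cGy, against 40.8% of all genes, with a median of 2.67. The mean platelet level was -1.97 to 0.72 in controls, 0.41 to 1.40 at 50 cGy and 2.03 to 3.39 at 1000 cGy. Of 7 measured T cell markers of 15 listed, 2 were called higher and 3 lower at 1000 cGy, against 40.8% and 25.9%, with a median of -0.25. Of 3 measured NK and cytotoxic markers 2 were called higher, as were 2 of 3 measured erythroid markers.

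Of 8 measured dendritic cell markers of 16 listed, 6 were called higher and 2 lower at 1000 cGy, against 40.8% and 25.9% of all genes, with a median of 0.73. Higher were among others Bst2, an interferon-induced surface protein of plasmacytoid cells and other cells (1.22, limma adjusted p = 7.09e-10), and Zbtb46, a transcription factor of classical dendritic cells (0.86, limma adjusted p = 1.99e-05). Lower were Ly6d, which B lineage cells also express (-4.02, limma adjusted p = 2.91e-18), and Tcf4 (-0.38, limma adjusted p = 0.00745, and -0.63 without centring). The mean level of this list was -0.22 to 0.22 in controls and -0.06 to 0.22 at 1000 cGy. After quantile normalization 3 and 2 were called higher and lower, where 4402 and 5362 of 16600 probes were. The part of cell makeup in the class II differences was not tested. The comparison with B cell genes that follows cannot separate fewer cells from less RNA per cell.

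**Figure D3:**
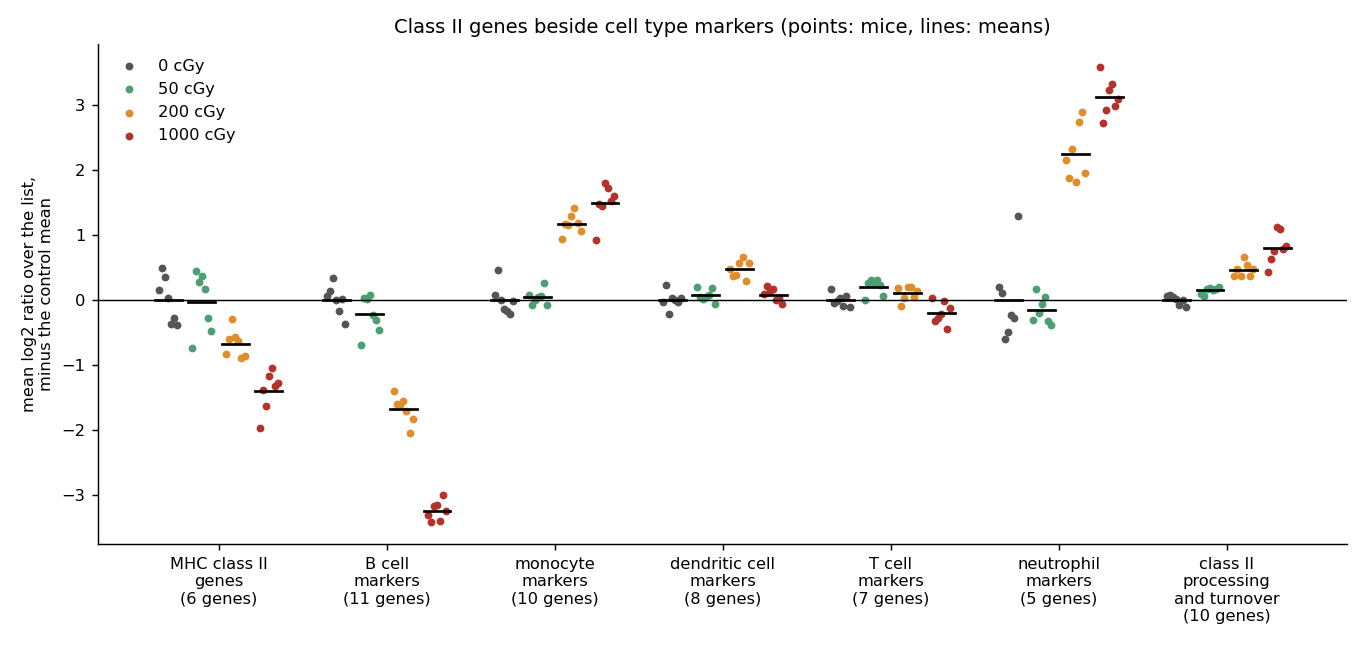
Mean log2 ratio over each gene list minus the control mean (vertical axis) in each mouse; points are mice coloured by dose, lines are group means, and the number of measured genes stands under each list. At 1000 cGy the class II genes lie between -1.97 and -1.05, above the B cell markers (-3.42 to -3.00), while monocyte and neutrophil markers lie above control.

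Set against Cd79a on the same array, class II transcripts were shifted upward from this B cell gene at both higher doses, apart from the Cd74 probe M300004234. Cd79a itself had log2 ratios of 3.92 to 5.07 in controls, 2.05 to 3.33 at 200 cGy and 0.85 to 1.79 at 1000 cGy. At 1000 cGy the shift relative to Cd79a was 1.13 for H2-Aa, 1.17 for Cd74 (M300004233), 1.36 for H2-DMa, 2.17 for H2-Eb1, 2.66 for H2-Ab1 and 3.18 for Ciita, with all 7 mice above all controls for each (exact permutation test, p = 0.000583, the smallest possible, adjusted p = 0.00111 over 21 tests). M300004234 shifted the other way, by -0.59, with 3 of 7 mice below all controls (exact permutation test, adjusted p = 0.0155). At 200 cGy the shift of this probe was -0.05 (exact permutation test, adjusted p = 0.812) and those of the other 6 lay between 0.96 for H2-DMa and 1.61 for Ciita. At 50 cGy H2-Ab1 and H2-DMa were already shifted, by 0.51 (exact permutation test, adjusted p = 0.00471) and 0.50 (exact permutation test, adjusted p = 0.0114).

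The choice of B cell gene decided part of this. With Ms4a1 in place of Cd79a, the shifts at 1000 cGy were -0.0080 for Cd74 (M300004233), -0.049 for H2-Aa and 0.18 for H2-DMa (exact permutation test, adjusted p = 0.981, 0.966 and 0.647), so these 3 no longer differed from the B cell gene beyond the spread. H2-Ab1 (1.48) and Ciita (2.00) were still shifted upward relative to Ms4a1, with all 7 mice above all controls (exact permutation test, adjusted p = 0.00245). H2-Eb1 was shifted by 0.99, with 3 of 7 mice above all controls (exact permutation test, adjusted p = 0.0449). Cd74 (M300004234) fell more than Ms4a1, with a shift of -1.77. Ms4a1 varied more between mice at 1000 cGy (0.93 to 2.55) than Cd79a did. The 11 B cell markers had log2 differences from -5.30 to -1.99 at this dose, with a median of -3.22. Cd79a (-3.20) lay near that median, and Ms4a1 (-2.02) near the smallest fall of the list.

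**Figure D4:**
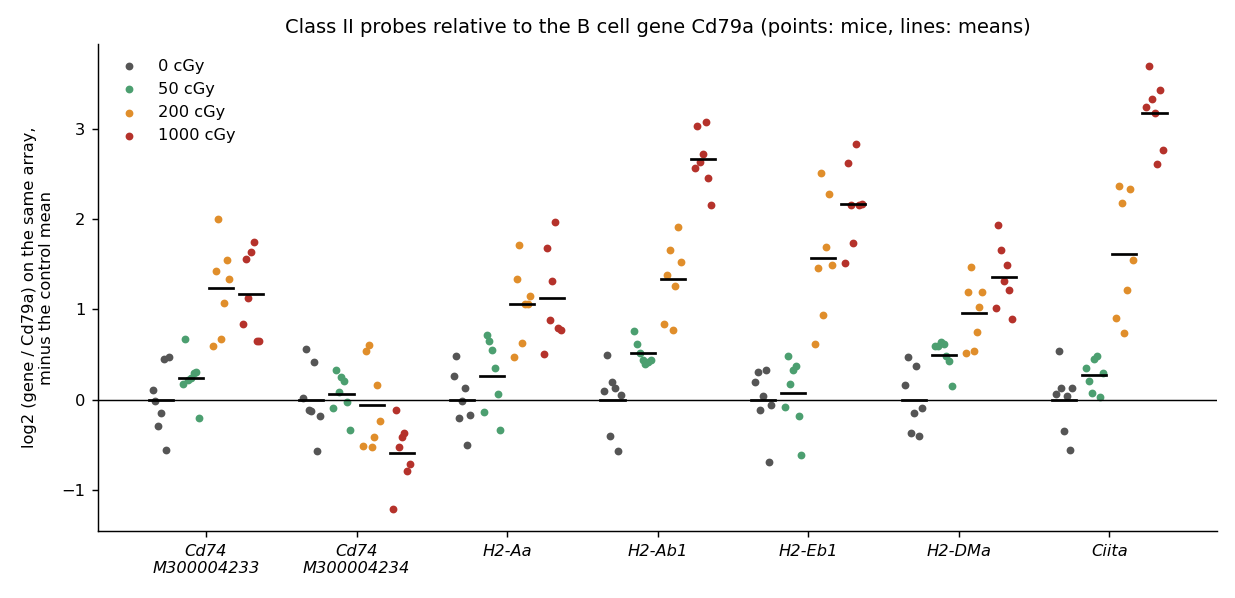
Log2 ratio of each class II probe to Cd79a on the same array, minus the control mean (vertical axis), for the 7 probes (horizontal axis); points are mice coloured by dose and lines are group means. At 1000 cGy the means rise from -0.59 for Cd74 (M300004234) to 3.18 for Ciita, and at 50 cGy they lie within 0.51 of the control mean.

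Genes of factors that act on class II promoters were called at shares near those of all genes at 200 cGy. At 1000 cGy their shares were below those of all genes. Of 16 measured genes of 17 listed, 4 were called higher and 4 lower at 200 cGy, against 23.2% and 20.3% of all genes. At 1000 cGy 4 and 3 were called, against 40.8% and 25.9%. The medians at these doses were 0.09 and 0.11, against 0.04 and 0.17 over all genes. Without centring of the arrays the counts at 1000 cGy were 1 higher and 5 lower, where 3974 and 6610 of 16600 probes were. After quantile normalization they were 3 and 6, against 4402 and 5362 probes. Spi1, the myeloid and B cell factor PU.1, rose by 1.79 at 200 cGy (limma adjusted p = 7.68e-12) and 2.15 at 1000 cGy (limma adjusted p = 2.84e-14). Irf4, a factor of activated B cells and plasma cells, fell by 1.48 and 2.60 (limma adjusted p = 1.2e-08 and 6.3e-14). Among the subunits that bind the X and Y boxes, Rfx5 was -0.86 at 200 cGy (limma adjusted p = 0.00108) and -0.18 at 1000 cGy (limma adjusted p = 0.437), Rfxap was higher by 0.62 at 50 cGy, 0.39 at 200 cGy and 0.24 at 1000 cGy (limma adjusted p = 4.35e-05, 0.000605 and 0.0193), and Nfyb was 0.48 higher at 1000 cGy (limma adjusted p = 0.00277). Without centring, the values of Rfxap and Nfyb at 1000 cGy were -0.011 and 0.23 and not called. After quantile normalization Spi1 was 1.28 at this dose.

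Most measured proteases and other genes that handle the invariant chain and class II molecules in endosomes were higher at the doses where Cd74 was lower. Of 10 measured of 15 listed, 6 were called higher and 2 lower at 200 cGy, against 23.2% and 20.3% of all genes. At 1000 cGy 7 and 1 were called, against 40.8% and 25.9%, with a median of 1.06. Without centring the counts at 1000 cGy were 7 and 3, where 3974 and 6610 of 16600 probes were called higher and lower. After quantile normalization they were 6 and 3, against 4402 and 5362 probes. Ctsd, an aspartic protease of lysosomes, had log2 ratios from -1.01 to -0.33 in controls and from 0.86 to 1.98 at 1000 cGy, and rose by 2.15 (limma adjusted p = 1.98e-12). Sppl2a, which removes the last membrane stub of the invariant chain, rose by 1.34 (limma adjusted p = 2.44e-09), Ctsl, a cysteine protease, by 1.10 (limma adjusted p = 2.11e-08), and Marchf8, a ubiquitin ligase that sends class II to degradation, by 1.41 (limma adjusted p = 2.53e-08). Ctss, which makes the late cuts of the invariant chain in B cells and dendritic cells, was 0.82 higher (limma adjusted p = 2.84e-05), but -0.027 after quantile normalization, which also lowered Sppl2a to 0.76 and Ctsl to 0.67. Lgmn, an asparaginyl endopeptidase, fell by 0.40 (limma adjusted p = 0.0088), or by 0.65 without centring. Quantile normalization at 200 cGy lost the calls of Ctsl (0.17, limma adjusted p = 0.41) and Lgmn (-0.27, limma adjusted p = 0.103). Ctsd (1.35), Sppl2a (0.64) and Marchf8 (0.89) were still called higher there. Monocyte and neutrophil markers rose at the same doses, with all 5 measured neutrophil markers of 11 listed called higher and means relative to control of 2.73 to 3.60 at 1000 cGy, against -0.61 to 1.30 in controls. Their part in the protease values was not tested.

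Of the costimulatory genes 4 of 9 listed were measured. Cd86, a ligand of CD28, fell by 0.93 and 1.45 at 200 and 1000 cGy (limma adjusted p = 1.58e-05 and 5.12e-09), and Cd40, the receptor for T cell help, fell by 0.75 and 0.74 (limma adjusted p = 1.46e-05 and 8.89e-06). Tnfsf9, the 4-1BB ligand, rose by 1.54 and 0.68 (limma adjusted p = 1.29e-08 and 0.00073), and by 0.43 at 1000 cGy without centring. Cd274, which encodes PD-L1, was 0.50 and 0.65 higher (limma adjusted p = 0.00524 and 0.00027), but 0.20 and -0.052 and not called after quantile normalization.

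Class I molecules present peptides from inside the cell to CD8+ T cells. With arrays centred on their medians, genes of this pathway were called higher or lower no more often than all genes at 1000 cGy. Of 21 measured genes of 27 listed, 8 were called higher and 4 lower at 1000 cGy, against 40.8% and 25.9% of all genes, with a median of 0.03. This split turned with the scaling, to 3 higher and 9 lower without centring and 1 and 11 after quantile normalization. Calls over all 16600 probes turned as well, from 6360 higher and 4796 lower to 3974 and 6610 without centring. After quantile normalization those of all probes were 4402 and 5362. B2m, the light chain of class I, ranged from 2.82 to 3.28 in controls and from 4.51 to 5.38 at 1000 cGy and rose by 1.95 (limma adjusted p = 1.13e-11). With quantile normalization the rise of B2m was 0.98. H2-T23, a nonclassical class I chain, was 1.08 higher (limma adjusted p = 2.62e-09), but 0.25 and not called after quantile normalization. Erap1, which trims peptides in the endoplasmic reticulum, fell by 1.33 (limma adjusted p = 7.82e-10).

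Genes of class I processing lie among the class II genes on chromosome 17, and this neighbourhood was looked at after the values had been seen. RefSeq places 16 genes from H2-Oa to H2-Ea, of which 9 were measured, 4 of them class II genes. Tap1 and Psmb9, a peptide transporter subunit and an immunoproteasome subunit, lay 0.41 and 0.48 above control at 1000 cGy (limma adjusted p = 0.00439 and 0.00911), but 0.16 and 0.23 without centring and -0.22 and -0.23 after quantile normalization, where neither was called. Their neighbours Tap2 and Psmb8 were not called (-0.18 and -0.19, limma adjusted p = 0.179 and 0.165) but were called lower without centring (-0.43 and -0.44) and after quantile normalization (-0.51 and -0.80). Brd2, a bromodomain protein, fell by 0.38 (limma adjusted p = 0.000678), or by 0.63 without centring. The falls of H2-Aa, H2-Eb1, H2-DMa and H2-Ab1 at this dose were larger in size than any difference among these 5 genes under each of the 3 scalings.

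**Figure D5:**
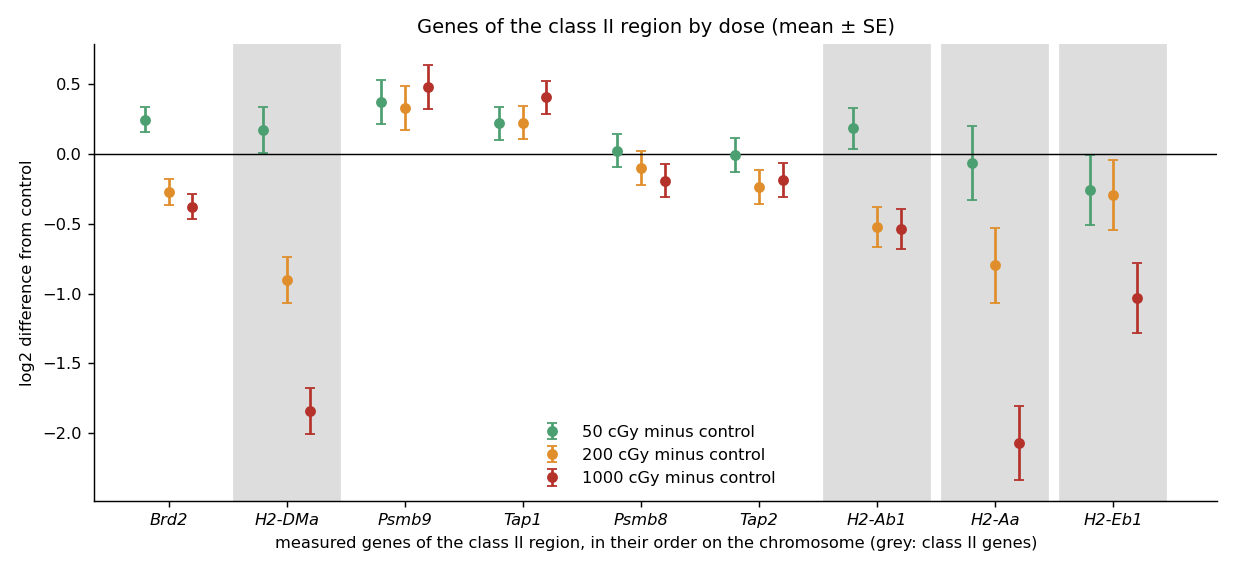
Log2 difference from control (vertical axis, limma estimate ± SE) at 50, 200 and 1000 cGy for the 9 measured genes of the class II region, in RefSeq order with even spacing (horizontal axis). Class II genes, shaded grey, reach -2.07 at 1000 cGy, while the 5 other genes lie between -0.38 and 0.48.

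Over the 28 arrays, the 5 genes whose log2 ratios followed those of Cd74 most closely among 8675 genes were H2-DMa (Pearson's r 0.972), Cd22 (0.972), an inhibitory receptor of B cells, Hvcn1 (0.966), a proton channel, Scd1 (0.965), a fatty acid desaturase, and Cd79b (0.963). The 5 most opposed were Thyn1 (-0.967), Commd3 (-0.967), H2aj (-0.966), Ldhb (-0.949) and Polk (-0.936). H2-Aa followed with 0.962, H2-Ab1 with 0.767, H2-Eb1 with 0.765 and Ciita with 0.165. Since every array carries the dose, these values mostly follow the dose means. With the dose means taken out, the order was another: r with Cd74 was 0.934 for H2-Aa, 0.859 for H2-DMa, 0.808 for H2-Eb1 and 0.764 for H2-Ab1, but 0.639 for Cd22, 0.525 for Cd79a, 0.381 for Cd79b and 0.091 for Ms4a1. The value for Ciita was 0.536, below that of Cd22 and close to that of Cd79a. Within doses, r with Cd74 was thus higher for the 4 class II genes other than Ciita than for these 4 B cell genes, as a description of the 28 arrays.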

How the data were processed

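RNA of PB MNCs from 28 mice was hybridized by the authors to Operon mouse oligonucleotide arrays against a universal mouse reference. The study's methods put the sample in Cy5 and the reference in Cy3, which sets the direction; the labels of 6 of the 7 arrays at 1000 cGy name no real dye. The authors read each spot as its median of ratios, dropped those with a signal below 100, and deposited log2 ratios, with a normalization between arrays not given in the sources used here. That the values are log2 was checked on the smaller ratios of the table: 97.4% of these are whole thousandths (tolerance 6e-05). Larger ratios were left out of this check. Of 16722 probes, 10820 have 1 gene symbol in the platform annotation, 232 several and 5670 none. No intensities were used, so the number of arrays limits the precision. No class II value was missing or at the lowest ratio of the table, 0.01. Array medians before centring were -0.19, -0.15, -0.29 and -0.44 on average at 0, 50, 200 and 1000 cGy.

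Arrays were centred on their medians. The 16600 probes with 5 or more values in every group entered limma 3.58.1 (R 4.3.3), with a mean for each of the 4 groups. Probes with the same symbol were averaged for gene lists (9076 genes). Differences within arrays were tested by exact permutation in Python 3.11.15 (numpy 2.4.6, pandas 2.3.3). The fit was tested on simulated data. Genes named from each list are mainly the 3 with the smallest adjusted p at 1000 cGy and the ends of the list, and others were named after their values were seen. The members and lists were chosen with earlier results of these data known. The fits were repeated with array weights, robust variance moderation, quantile normalization, no centring, a replicate block, other limits on missing values, the lowest ratio taken as missing, only the groups compared, 1 probe per gene, another B cell gene, and each mouse left out. The values of single list genes under other scalings, each Cd74 probe alone, and the genes neighbouring class II, were added after the data were seen.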

Additional observations from a re-analysis of the deposited data

Results flagged for a closer look

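On H2-DMa, 2 mice stood far below the rest of their group. At 200 cGy replicate 6 had a log2 ratio of 2.51 against 3.02 for the next mouse, a gap that was 0.625 of the whole range of the group, above the limit of 0.568 for 7 samples. At 1000 cGy replicate 1 had 1.56 against 2.12 for the next mouse, a gap of 0.768 of the range. Over the 7 probes and 4 doses, 28 groups were looked at and these 2 stood out, and chance gives about 1 in 20 groups. H2-DMa was called lower at both doses with either mouse left out.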

How the results depend on the processing

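Counts of class II probes called lower or higher were within 1.5 times the main count in 272 of 276 repeats. The exception was the step from 50 to 200 cGy, with 3 to 5 probes called lower when 1 mouse was left out, 3 without replicates 2, 3 or 4 of 50 cGy or replicate 6 of 200 cGy. Counts called higher, and those called lower at 50 cGy against control, were 0 in the main fit and stayed 0. The limit of 1.5 times also passed the calls of Ciita and H2-Eb1 gained at 200 cGy against control under quantile normalization. The replicate block left 5 probes lower at 200 cGy and 6 at 1000 cGy and changed no call; mice with the same number had a mean residual r of -0.0156 over 42 pairs, and 3 of 28 were closest to their own number, so the numbers do not pair mice. Of 966 repeats for single probes 949 kept direction and call. Quantile normalization called Ciita lower at 1000 against 50 cGy (-0.57, limma adjusted p = 0.00259), where the main difference was 0.04, and at 200 against 50 cGy (-0.52), and H2-Eb1 at the same step (-0.69). The median of all probes at 1000 cGy was 0.13 with centring, -0.12 without and -0.02 with quantile normalization, and the cause of the differences was not tested. Of 597 repeats within arrays 583 were the same, and quantile normalization was not among these repeats. With Cd74 probe M300004233 alone in place of the mean, added after the data were seen, the shift of H2-Aa turned to -0.17 at 200 cGy and -0.041 at 1000 cGy and that of H2-DMa to -0.28 at 200 cGy. With Ms4a1 as the B cell gene, shifts at 1000 cGy were -0.0080 for Cd74 (M300004233) and -0.049 for H2-Aa. At 50 cGy the shift of Ciita relative to Cd79a was 0.36 without Normal replicate 2, and that of M300004234 relative to M300004233 was -0.29 without Normal replicate 7, and these were then called. T cell markers at 1000 cGy were 2 higher and 3 lower, 0 and 4 without centring, and 0 and 6 after quantile normalization. Of all 16600 probes at this dose, 6360 were called higher and 4796 lower, and 3974 and 6610 without centring. After quantile normalization 4402 and 5362 of all probes were called. Depth or signal over background cannot be given.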
